A study of Mus musculus with 38 samples.

Results

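The members described here are the fragments of 8 cytosolic tRNA isoacceptors found in mouse sperm. Of these isoacceptors, 5 are named for serine (tRNA-Ser-AGA, tRNA-Ser-CGA, tRNA-Ser-GCT, tRNA-Ser-GGA and tRNA-Ser-TGA) and 3 for threonine (tRNA-Thr-AGT, tRNA-Thr-CGT and tRNA-Thr-TGT). They were chosen by name alone, as every isoacceptor of these amino acids under the genome-matching tRNA class, and are 8 of the 54 isoacceptors that had a read in any mouse. An isoacceptor is the set of tRNAs that share an amino acid and an anticodon, and its reads here are pieces of the tRNA as well as any whole molecule that entered the library.

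Small RNA of sperm was sequenced in 38 adult male C57BL6/J mice aged 11 to 13 weeks, 1 library per mouse, with inserts of 13 to 73 bases selected. CT stands for a control diet with 20% protein and PR for a protein-restricted diet with 8% protein. In each group name the opening pair of letters gives the diet of the dam through pregnancy and lactation and the closing pair the diet of the male offspring after weaning at day 21. The 10 CTCT mice thus ate the control diet throughout, the 9 CTPR mice were restricted only after weaning, the 9 PRCT mice only before it, and the 10 PRPR mice throughout. The mice came from 21 litters, 11 of CT dams and 10 of PR dams. All were of a single inbred strain, and littermates share a dam, so mice of the same litter are not fully independent. Each library held between 4465281 and 7612603 genome-matching reads, and levels are given as reads per 1000000 of these (RPM).

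A tRNA brings its amino acid to the ribosome, where its anticodon pairs with the codon. In sperm, most tRNA-derived reads come from fragments cut in or near the anticodon loop, mainly from the 5′ side, and these fragments are gained in large part while sperm pass through the epididymis. Serine tRNAs stand out by a long variable arm, and the cytosolic tRNAs of both amino acids are known carriers of 3-methylcytidine in the anticodon loop. tRNA-Ser-AGA and tRNA-Thr-AGT have a genomic A at the wobble position that is edited to inosine. Such modifications can stop a reverse transcriptase. No tRNA sequence was used here.

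RefSeq's annotation of GRCm38.p6, the assembly also called mm10, lists 39 gene copies for the 8 isoacceptors, spread over 10 chromosomes. tRNA-Thr-AGT has 9 copies, tRNA-Ser-GCT 8, tRNA-Ser-AGA 7, tRNA-Thr-CGT and tRNA-Thr-TGT 4 each, and tRNA-Ser-CGA and tRNA-Ser-TGA 3 each. tRNA-Ser-GGA has a single copy, n-TSgga1, of 73 bases at chr11:100538158-100538230. Whether this shorter tRNA carries serine was not tested, and it is grouped here by name. Of all copies, 19 lie on chromosome 13, where several tRNA gene clusters are found, and 9 on chromosome 11. The other serine copies are 82 bases long and the threonine copies 72 to 74 bases. By gene length, a whole serine tRNA of 82 bases was therefore longer than the selected inserts and a threonine tRNA lay near their upper limit. The CCA added to a mature tRNA comes on top of these lengths. Reads of near-identical copies could not be assigned to a single gene, and each isoacceptor is reported as a sum.

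Both families were a small part of the sperm tRNA reads. The 54 isoacceptors together took 12.3% of the genome-matching reads on average, with tRNA-Gly-GCC alone at 65877 RPM. The 5 serine members summed to 174 RPM and the 3 threonine members to 164 RPM, which together was 0.286% of the tRNA reads. Members differed in level over more than an order of magnitude. tRNA-Thr-AGT was the most abundant at 90.4 ± 70.6 RPM (SD, n = 38), with a lowest, median and highest mouse of 6.73, 74.0 and 269 RPM. tRNA-Ser-AGA followed at 80.9 ± 35.0 RPM, tRNA-Ser-GCT at 55.0 ± 32.6 RPM and tRNA-Thr-TGT at 45.6 ± 21.3 RPM. tRNA-Ser-TGA averaged 32.5 ± 17.8 RPM and tRNA-Thr-CGT 28.1 ± 20.8 RPM. These 6 members were detected in all 38 mice and ranked between 23 and 40 by mean level among the 54 isoacceptors.

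The remaining serine members were rare. tRNA-Ser-CGA averaged 4.25 ± 1.93 RPM and was detected in 37 mice. tRNA-Ser-GGA averaged 1.31 ± 2.05 RPM and was detected in 22 mice. A count of 0 allows up to 3 reads, which is 0.456 to 0.672 RPM in the 16 mice without a tRNA-Ser-GGA read and 0.465 RPM in the mouse without tRNA-Ser-CGA. Such limits cover counting error only, since reads made by PCR without molecular identifiers are not independent molecules. tRNA-Ser-GGA values thus lay close to what the depth can show.

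Divided by gene length, the order of the members was the same, from 122 RPM per 100 bases for tRNA-Thr-AGT to 1.80 RPM per 100 bases for tRNA-Ser-GGA. Several neighbours in this order could not be separated mouse by mouse. tRNA-Thr-AGT was above tRNA-Ser-AGA in 22 of 38 mice, and in only 4 of 10 CTCT mice. tRNA-Ser-GCT was above tRNA-Thr-TGT in 21 of 38 mice and tRNA-Ser-TGA above tRNA-Thr-CGT in 22 of 38. Other steps were seen in most mice. tRNA-Ser-AGA exceeded tRNA-Ser-GCT in 34 mice and tRNA-Thr-TGT exceeded tRNA-Ser-TGA in 31, while tRNA-Thr-CGT exceeded tRNA-Ser-CGA in all 38.

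**Figure D1:**
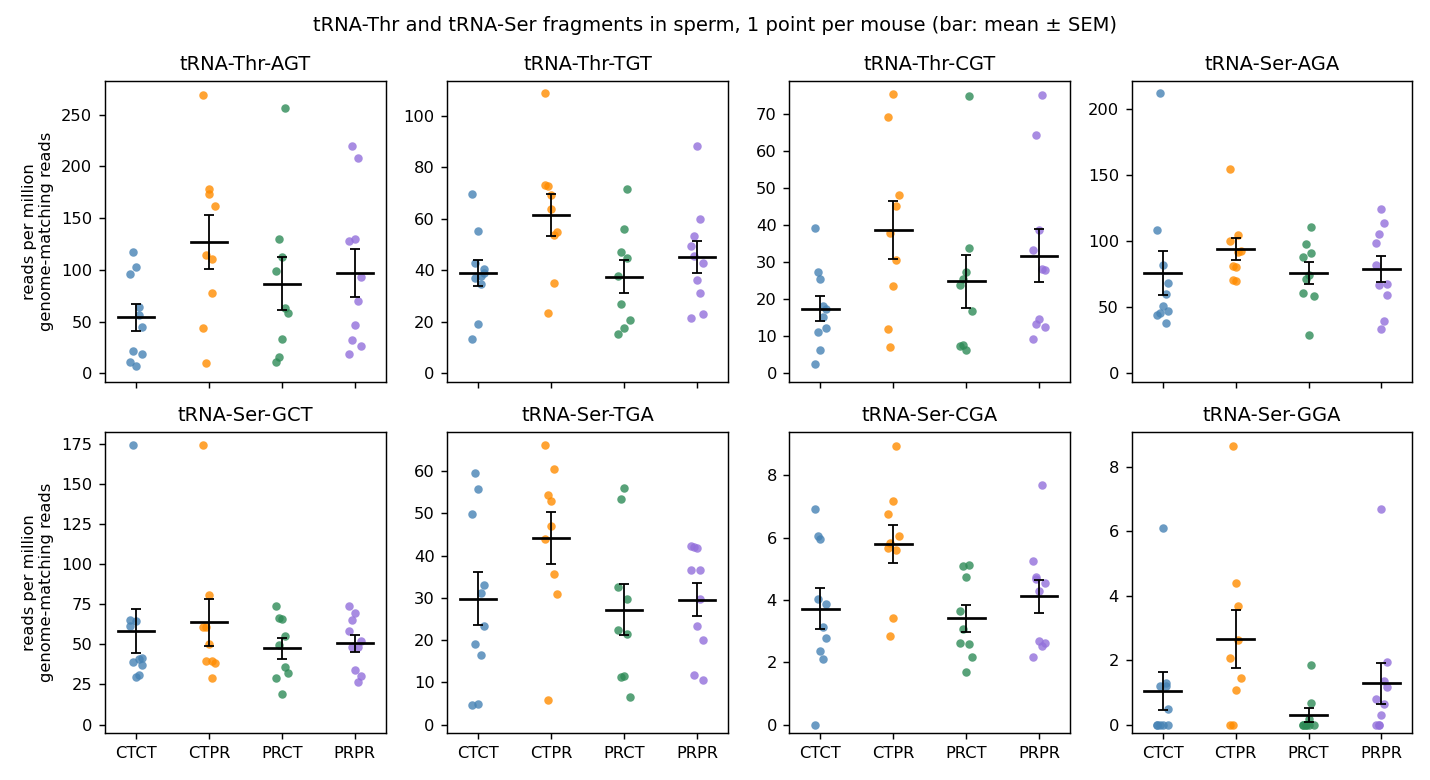
RPM of each isoacceptor in each mouse (points), by diet group, with the group mean and its SEM (bars). The groups overlapped for all 8 isoacceptors, and 4 of the 9 CTPR mice lay above the highest CTCT mouse for tRNA-Thr-AGT and for tRNA-Thr-CGT.

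The members differed in the part of the tRNA their reads came from. The files list again, by isoacceptor, the tRNA reads that begin at the 5′ end, stop at the 3′ end, or carry the CCA added after the 3′ end. The end listing can credit a read to a different isoacceptor than the main listing does, since sister tRNAs share end sequences, so ratios above 100 per 100 occur and sums over a family are given too. tRNA-Ser-AGA had 115 reads at the 5′ end per 100 of its reads over all mice, and in 33 of 38 mice the 5′ listing was the larger. tRNA-Ser-GCT had 65.3 per 100, tRNA-Ser-CGA 50.2 per 100 and tRNA-Ser-TGA 14.5 per 100. Serine fragments were thus mostly 5′ fragments. Over the 3 sister isoacceptors tRNA-Ser-AGA, tRNA-Ser-CGA and tRNA-Ser-TGA, 84.9 of 100 reads lay at the 5′ end, against 78.2 for all serine members and 84.9 for all isoacceptors together.

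Threonine fragments had a different make-up. The family sum held 7.50 5′ reads per 100, with a range of 3.98 to 24.6 over the mice, which did not overlap the serine range of 60.7 to 95.5. Most of these came from tRNA-Thr-TGT, with 27.4 per 100. tRNA-Thr-CGT had 2 such reads of 6916 (0.0289 per 100) and tRNA-Thr-AGT 1 of 22280 (0.00449 per 100). These were the lowest values among the 46 isoacceptors with at least 1000 reads, of which 6 were under 1 per 100 and 19 over 50 per 100, with a median of 27.7. tRNA-Arg-CCT, another known carrier of 3-methylcytidine, came next with 0.0430 per 100, while tRNA-Arg-TCT, also a known carrier, had 1.29 per 100. Isoacceptors not named here as carriers ranked between these 2, at 0.0529 to 1.22 per 100. The serine members in this ranking, of a family named above as carriers, had 14.5 to 115 per 100.

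**Figure D2:**
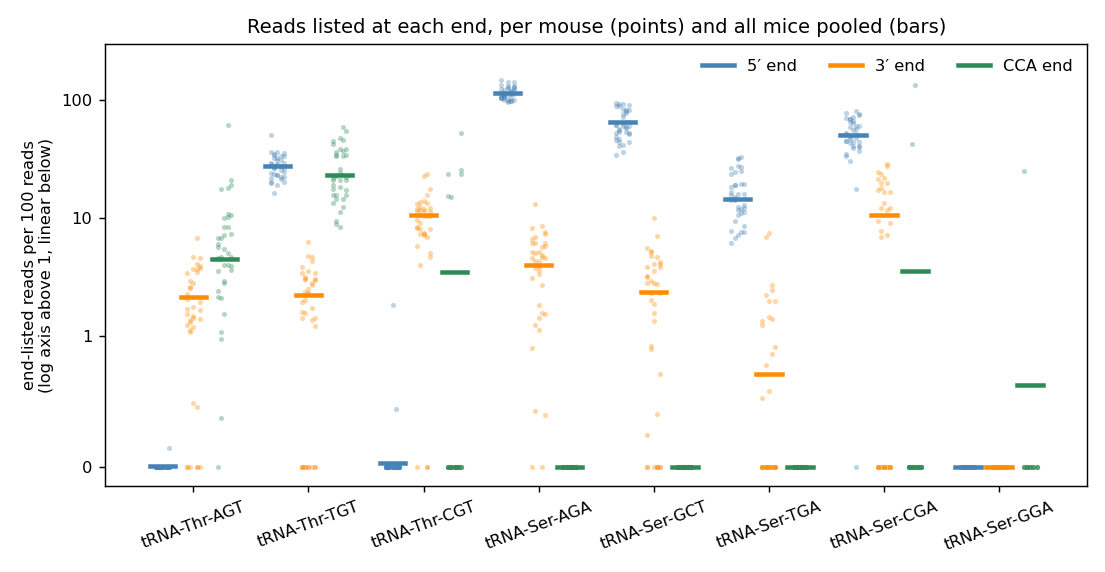
Reads listed at the 5′ end, 3′ end or CCA end per 100 reads of each isoacceptor, per mouse (points) and over all mice pooled (bars), on an axis that is logarithmic above 1 and linear below. The 5′ bar is highest for tRNA-Ser-AGA at 115 and at or near 0 for tRNA-Thr-AGT, tRNA-Thr-CGT and tRNA-Ser-GGA, and the CCA bar is highest for tRNA-Thr-TGT at 23.4. All bars count genome-matching reads only, so CCA reads that did not match the genome are left out.

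Reads that stop at the encoded 3′ end were 3.01 per 100 for serine and 3.64 per 100 for threonine. The pooled value over all isoacceptors was 0.324 per 100, to which abundant tRNAs such as tRNA-Gly-GCC contribute most reads, while the median of the 46 isoacceptors was 2.09 per 100, and the 7 members among them ranked between 8 and 34 from the highest. Among members they were highest for tRNA-Thr-CGT with 10.7 and tRNA-Ser-CGA with 10.6 per 100, and lowest among those with such reads for tRNA-Ser-TGA with 0.706 per 100. Reads with the CCA tail under the genome-matching class differed between the pooled family sums, at 9.49 per 100 for threonine and 0.0934 per 100 for serine. The tail is not encoded, and CCA reads that did not match the genome are listed apart. In that listing, described at the end, this difference between the families was not seen. The genome-matching CCA reads were 0.333 per 100 over all isoacceptors, with a median of 1.57 per 100 over the 46. The ranges over the mice overlapped, 1.65 to 49.4 for threonine and 0 to 3.66 for serine. Pooled, tRNA-Ser-CGA (3.53 per 100) stood beside tRNA-Thr-CGT (3.47 per 100). tRNA-Thr-TGT had 2560 such reads, 23.4 per 100, in all 38 mice, and more of them than encoded 3′ ends in each of the 38. tRNA-Thr-AGT had 1010, in 37 mice. tRNA-Thr-CGT had 240 but in only 6 mice, and tRNA-Ser-CGA 36 in 2 mice, while tRNA-Ser-AGA, tRNA-Ser-GCT and tRNA-Ser-TGA had none. The 320 tRNA-Ser-GGA reads included none at the 5′ or encoded 3′ end and 2 with CCA, both from 1 mouse.

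Post-weaning restriction after a control-fed dam was examined by comparing CTPR with CTCT. All 8 members had a higher fitted level in CTPR relative to genome-matching reads, although with TMM or median-of-ratios factors, which centre on the tRNAs themselves, 5 of the 8 values were negative. In RPM, the 3 threonine members together with tRNA-Ser-CGA passed a nominal P of 0.05, but none passed after Benjamini-Hochberg adjustment over the 54 isoacceptors. The 4 of 8 stood against 35.2% of all isoacceptors at the same nominal threshold, 19 of 54 and all higher. DESeq2 put 3 members and 18 isoacceptors at nominal P and none after adjustment. The difference was thus shared with tRNA fragments in general. Its median on the log2 scale was 1.16 for threonine and 0.59 for serine, beside 0.71 for all 54 isoacceptors, of which 51 had a positive value. The 3 serine members above 10 RPM had a median of 0.33.

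For tRNA-Thr-AGT, the lowest, median and highest mouse stood at 6.73, 51.1 and 117 RPM in CTCT and at 9.96, 115 and 269 RPM in CTPR. The groups overlapped, although the median of CTCT was exceeded by 7 of 9 CTPR mice. The group means were 54.1 ± 40.3 and 127 ± 78.8 RPM (SD, n = 10 and n = 9). The log2 fold change was 1.23 with an SE of 0.50 (P = 0.0188, adjusted P = 0.0715, edgeR quasi-likelihood test).

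tRNA-Thr-CGT spanned 2.63 to 39.4 RPM in CTCT with a median of 16.2 and 7.12 to 75.4 RPM in CTPR with a median of 38.1. Again 7 of 9 CTPR mice exceeded the CTCT median and 4 exceeded its highest mouse. Its log2 fold change was 1.16 with an SE of 0.44 (P = 0.0115, adjusted P = 0.0715). tRNA-Thr-TGT spanned 13.2 to 69.4 RPM in CTCT with a median of 38.4 and 23.2 to 109 RPM in CTPR with a median of 63.8. It differed by less, with a log2 fold change of 0.66 and an SE of 0.31 (P = 0.0362, adjusted P = 0.115).

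The serine members were more mixed. tRNA-Ser-CGA averaged 3.72 ± 2.12 RPM in CTCT and 5.80 ± 1.84 RPM in CTPR, a log2 fold change of 0.68 with an SE of 0.33 (P = 0.0464, adjusted P = 0.132). For tRNA-Ser-AGA, all 9 CTPR mice, at 69.7 to 154 RPM, lay above the CTCT median of 55.5 RPM, but the CTCT group reached 212 RPM in a mouse of litter 02A and the log2 fold change was 0.33 (P = 0.266). tRNA-Ser-TGA differed by 0.59 (P = 0.133) and tRNA-Ser-GCT by 0.13 (P = 0.702) on the log2 scale. tRNA-Ser-GGA had the largest fitted value of the members, 1.34 with an SE of 0.74 (P = 0.0735), on means of 1.03 and 2.66 RPM and reads in 5 of 10 and 7 of 9 mice. A fitted fold change of so rare a tRNA depends on its zeros.

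**Figure D3:**
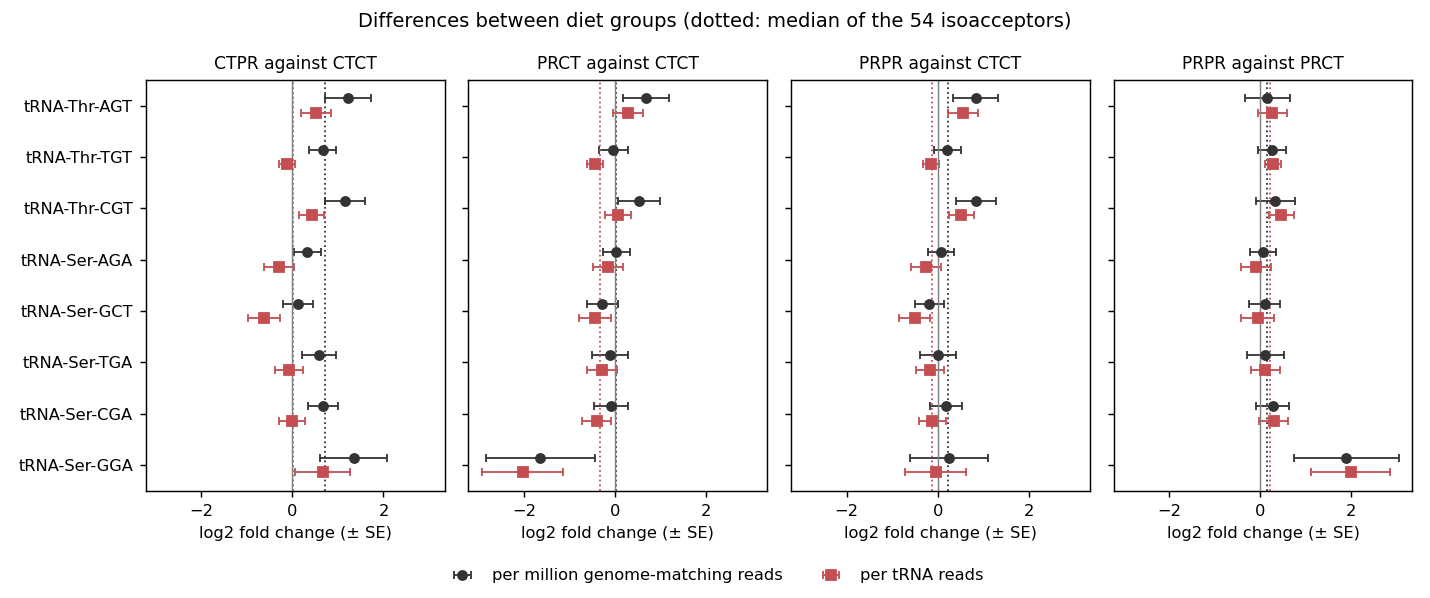
Log2 fold changes with their SE for the 8 isoacceptors in 4 comparisons, relative to genome-matching reads (black circles) and to summed tRNA reads (red squares), with the median of the 54 isoacceptors as dotted lines. In CTPR against CTCT the black values of tRNA-Thr-AGT and tRNA-Thr-CGT lie to the right of the median of 0.71 and that of tRNA-Ser-GCT to the left.

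Other properties of the libraries moved with this comparison. tRNA reads took 9.57 ± 4.08% of genome-matching reads in CTCT and 15.9 ± 5.98% in CTPR, while snoRNA reads took 27.5 ± 12.4% and 15.95 ± 7.72%. The summed level of 12 germ line miRNAs ranged from 27.9 to 1079 RPM in CTCT and from 136 to 1715 RPM in CTPR, with medians of 417 and 1019 RPM. The 5 epithelial miRNAs of the mir-200 family ranged from 38.9 to 1294 RPM and from 34.2 to 2227 RPM, with medians of 525.5 and 1044 RPM. The 8 miRNAs of muscle ranged from 63.5 to 3276 RPM and from 71.6 to 8575 RPM, with medians of 1549 and 2606 RPM. The 2 leukocyte miRNAs had medians of 13.9 and 29.1 RPM and the 5 of red cells 8.52 and 7.64 RPM, and the liver miRNA mir-122 was at 0 in 6 of 10 and 4 of 9 mice. miRNAs of germ cells were thus present in all libraries, and so were those of epithelium and muscle. Their part in the tRNA difference was not tested. All genome-matching miRNA reads together ranged from 10228 to 185188 reads in CTCT mice and from 7805 to 378918 in CTPR mice. The marker levels were not divided by this total. A shift of all miRNAs and a shift of 1 tissue therefore cannot be told apart by them. In bulk samples such as these, fewer cells of a type and less RNA per cell cannot be told apart.

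Relative to the summed tRNA reads of each mouse, the CTPR difference was not seen for the families as a whole. No member passed a nominal P of 0.05 on this scale, against 3.7% of the isoacceptors (2 of 54, both lower), and 0 of 54 passed after adjustment with edgeR or with DESeq2, which also put 2 at nominal P. The median log2 difference over all isoacceptors was 0.0042, that of threonine 0.42 and that of serine -0.068. For the 3 serine members above 10 RPM it was -0.29. tRNA-Thr-AGT had 0.52 (P = 0.122) and tRNA-Thr-CGT 0.42 (P = 0.131), whereas tRNA-Thr-TGT had -0.11 (P = 0.525). tRNA-Ser-GCT had the lowest value, -0.62 (P = 0.0853). With the litter as a block this became -0.47 (P = 0.00300, adjusted P = 0.156).

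A further 3 lists of tRNAs that share a property with the members were examined beside them for CTPR against CTCT in RPM. Of the 6 other tRNAs with a long variable arm, those of leucine and selenocysteine, 2 were at nominal P and higher. Their median log2 difference was 0.48, between the 0.59 of serine and the 0.33 of the 3 serine members above 10 RPM. Both arginine tRNAs known for 3-methylcytidine, tRNA-Arg-CCT and tRNA-Arg-TCT, were at nominal P and higher with a median of 1.15, near the 1.16 of threonine. Of the 6 other tRNAs with inosine at the wobble position, 3 were at nominal P, with a median of 0.78. No tRNA of these lists, of which tRNA-Leu-AAG stands on 2, passed after adjustment, and the lists are too short and too close to the 35.2% of all isoacceptors to be set apart by their counts.

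By end, 2 of the 19 listings of the members were at nominal P in this comparison, both higher and both of threonine. The share was 24.3% over all 185 listings, which hold the main isoacceptor rows as well as the ends. The main rows alone stood at 35.2% in their own fit, so 24.3% is not a share of end listings alone. The 5′ reads of tRNA-Thr-TGT differed by 0.74 with an SE of 0.33 (P = 0.0322, adjusted P = 0.185) and the CCA reads of tRNA-Thr-AGT by 0.91 with an SE of 0.44 (P = 0.0420, adjusted P = 0.185). No listing passed after adjustment. The 5′ reads of serine gave log2 values of 0.33 for tRNA-Ser-AGA, 0.40 for tRNA-Ser-CGA, 0.27 for tRNA-Ser-TGA and -0.085 for tRNA-Ser-GCT.

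Restriction before weaning alone was examined by comparing PRCT with CTCT, the same control mice as above. No member passed a nominal P of 0.05 in RPM, against 1.85% of the isoacceptors (1 of 54, none adjusted, and likewise 1 and 0 with DESeq2). The median log2 difference was 0.52 for threonine, -0.11 for serine and 0.012 for all isoacceptors. tRNA-Thr-AGT spanned 11.5 to 257 RPM in PRCT with a median of 63.4, a log2 fold change of 0.68 (P = 0.186). The highest of these values came from a single mouse and the next was 130 RPM. tRNA-Thr-TGT stood at 37.6 ± 19.1 RPM, beside 38.9 ± 15.98 RPM in CTCT.

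As a share of tRNA reads, 2 members were lower in PRCT than in CTCT at nominal P, against 14.8% of the isoacceptors (8 of 54, all lower, and 9 with DESeq2), and none was after adjustment. The share of tRNA-Thr-TGT was 0.0315 ± 0.00372% in PRCT and 0.0430 ± 0.0139% in CTCT, a log2 difference of -0.44 with an SE of 0.18 (P = 0.0198, adjusted P = 0.183). tRNA-Ser-GGA, detected in 3 of 9 PRCT mice, differed by -2.03 (P = 0.0262, adjusted P = 0.183). The median over all 54 isoacceptors was -0.33, with 10 positive values, so the shift of tRNA-Thr-TGT lay near that of the median isoacceptor. The summed tRNA reads are the base of this scale and cannot shift on it.

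Restriction throughout, PRPR against the same CTCT mice, gave no member and no isoacceptor at nominal P on either scale (0%), by edgeR or by DESeq2, in the fit over all groups. tRNA-Thr-AGT spanned 19.1 to 219.7 RPM with a median of 81.5, and its log2 fold change against CTCT was 0.84 with an SE of 0.50 (P = 0.0980). tRNA-Thr-CGT differed by 0.85 with an SE of 0.44 (P = 0.0591). Its P fell under 0.05 in 7 of 15 alternatives, among them the fit of the 2 groups alone (0.86, P = 0.0449), and in 8 of 38 omissions of a mouse, with an adjusted P of 0.534 or more throughout. The serine members ranged from -0.18 for tRNA-Ser-GCT to 0.25 for tRNA-Ser-GGA, and tRNA-Thr-TGT had 0.21. The medians were 0.84 for threonine, 0.081 for serine and 0.23 for all isoacceptors.

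After PR dams, the post-weaning diets were compared as PRPR against PRCT. No member or isoacceptor was at nominal P in RPM (0%, and 0 with DESeq2), with medians of 0.25 for threonine, 0.11 for serine and 0.15 for all. As a share, tRNA-Ser-GGA was the only isoacceptor at nominal P in the fit without a block (1.85%), with a log2 difference of 1.99 (P = 0.0251, adjusted P = 0.823), detected in 7 of 10 PRPR and 3 of 9 PRCT mice. With the litter as a block its difference in RPM was 2.44 (P = 0.00729, adjusted P = 0.379), and the share of tRNA-Thr-TGT reached nominal P at 0.28 (P = 0.0409, adjusted P = 0.535). Whether the post-weaning difference depended on the dam's diet was tested directly as an interaction. No member passed a nominal P of 0.05, against 3.7% of isoacceptors (2 of 54, none adjusted, and the same numbers with DESeq2). tRNA-Thr-AGT had an interaction of 1.07 on the log2 scale with an SE of 0.70 (P = 0.135) and tRNA-Thr-CGT 0.83 with an SE of 0.62 (P = 0.184). As a share, no member was at nominal P for the interaction either, against 5.56% of isoacceptors (3 of 54, all lower).

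By end, 1 of the 19 listings of the members was at nominal P in PRCT against CTCT, where it was lower. Of the same 185 listings, main isoacceptor rows included, 1.08% were lower and 3.78% passed in either direction. Among the members there was 1 each in PRPR against CTCT (2.16% of the 185) and PRPR against PRCT (2.7%). These were CCA reads of tRNA-Thr-CGT, seen in 6 mice, and of tRNA-Ser-CGA, seen in 2 mice. None passed after adjustment, and they rest on too few mice to be read as group differences. The better measured CCA reads of tRNA-Thr-TGT were 19.0 and 19.2 per 100 tRNA-Thr-TGT reads in CTCT and CTPR and 30.4 and 26.8 per 100 in PRCT and PRPR, pooled over each group. Their log2 difference in RPM against CTCT was 0.64 in CTPR (P = 0.0702), 0.64 in PRCT (P = 0.0682) and 0.67 in PRPR (P = 0.0522).

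Litters allowed the post-weaning diets to be compared between brothers. In the 8 litters with a CTCT and a CTPR mouse, each threonine member was higher in the CTPR brother in 7, with litter 45L as the exception, as was the sum of all isoacceptors. tRNA-Thr-AGT differed by 48.4 ± 52.5 RPM (SD, n = 8 litters), tRNA-Thr-CGT by 15.6 ± 21.1 RPM and tRNA-Thr-TGT by 13.6 ± 22.3 RPM. The spread was as large as the mean for each. In litter 57P the CTCT brother had 19.2 and the CTPR brother 110.3 RPM of tRNA-Thr-AGT, while in litter 47I they had 102.7 and 115 RPM. tRNA-Ser-AGA was higher in 5 of the 8 CTPR brothers, tRNA-Ser-TGA in 6 and tRNA-Ser-GCT in 4.

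With the litter as a block in the fit, tRNA-Thr-AGT differed by 0.93 (P = 0.00119, adjusted P = 0.0602) and tRNA-Thr-CGT by 0.80 (P = 0.00639, adjusted P = 0.0602) between CTPR and CTCT. tRNA-Ser-GGA reached nominal P at 1.15 (P = 0.0453, adjusted P = 0.113). tRNA-Thr-TGT at 0.40 (P = 0.138) and tRNA-Ser-CGA at 0.43 (P = 0.277) no longer did. In shares, tRNA-Ser-GCT was lower in 7 of 8 CTPR brothers and tRNA-Thr-AGT higher in 6 of 8. In the 9 litters of PR dams, tRNA-Thr-CGT, tRNA-Thr-TGT and tRNA-Ser-AGA were each higher in 7 PRPR brothers in RPM, and the share of tRNA-Thr-TGT was higher in 7.

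Brothers on different post-weaning diets tended to have similar levels of these fragments. Over the 17 litter pairs, deviations from the group means on a log2 scale were compared between brothers with a permutation test, partners being permuted among litters of the same dam diet. This test was added after the data had been seen. In RPM, Pearson's r was 0.79 for tRNA-Ser-TGA (permutation P = 0.0008), the highest of the 48 isoacceptors with a mean of at least 1 RPM, and Spearman's rho was 0.71 (P = 0.00243). It was 0.75 for tRNA-Thr-AGT (P = 0.0011, rho = 0.58, P = 0.0187), 0.67 for tRNA-Thr-CGT (P = 0.00301, rho = 0.63, P = 0.0084) and 0.64 for tRNA-Ser-AGA (P = 0.00267, rho = 0.54, P = 0.0218). These 4 members passed on r after adjustment over the 48, with adjusted P from 0.0128 to 0.0144, against 29.2% of the isoacceptors. On rho, tRNA-Ser-TGA alone of the members passed (adjusted P = 0.0317). For the summed tRNA reads, r between brothers was 0.66 (permutation P = 0.00862) and rho 0.43 (P = 0.0985). Without the 2 litters farthest from the median, chosen as described below, that r was 0.37. Likeness of a member in RPM is therefore not separate from that of the tRNA total.

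As a share of tRNA reads, 5 members passed on r, against 54.2% of the 48. They were tRNA-Ser-GCT (r = 0.83, rho = 0.64), tRNA-Ser-TGA (r = 0.82, rho = 0.86), tRNA-Ser-AGA (r = 0.79, rho = 0.72), tRNA-Thr-AGT (r = 0.72, rho = 0.63) and tRNA-Thr-CGT (r = 0.68, rho = 0.59). Their permutation P for r were 0.00027, 0.00016, 0.00034, 0.00224 and 0.00353, with adjusted P of 0.00233 for the serine members, 0.00827 for tRNA-Thr-AGT and 0.0113 for tRNA-Thr-CGT. For rho the P were 0.00899, 5e-05, 0.00254, 0.00971 and 0.0137, and all 5 passed after adjustment. The median r of the 48 isoacceptors was 0.59, so likeness between brothers was common to sperm tRNA fragments. The members that did not pass on r were tRNA-Thr-TGT (r = 0.33), tRNA-Ser-CGA (r = 0.37) and tRNA-Ser-GGA (r = 0.078). With 17 pairs this does not show that likeness was absent. For tRNA-Ser-CGA, r was 0.83 within litters of CT dams and -0.19 within those of PR dams.

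For each isoacceptor, the 2 litters whose brother on the CT diet after weaning lay farthest from the median were left out. Litters extreme only in the other brother were kept. Then r in shares was 0.77 for tRNA-Ser-TGA, 0.65 for tRNA-Ser-GCT, 0.64 for tRNA-Ser-AGA, 0.60 for tRNA-Thr-AGT and 0.45 for tRNA-Thr-CGT. In RPM it was 0.74 for tRNA-Thr-CGT, 0.55 for tRNA-Ser-TGA and 0.53 for tRNA-Thr-AGT, but fell to 0.13 for tRNA-Ser-GCT and 0.36 for tRNA-Ser-AGA, which thus rested in good part on single litters. Within litters of CT dams r in shares ranged from 0.76 to 0.93 over the 5 members, and within those of PR dams from 0.57 to 0.83. In 16 of the 17 pairs the brothers' libraries also carried consecutive numbers in the submitters' naming. What these numbers stand for is not stated. If they follow the order of handling, litter and that order cannot be told apart.

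**Figure D4:**
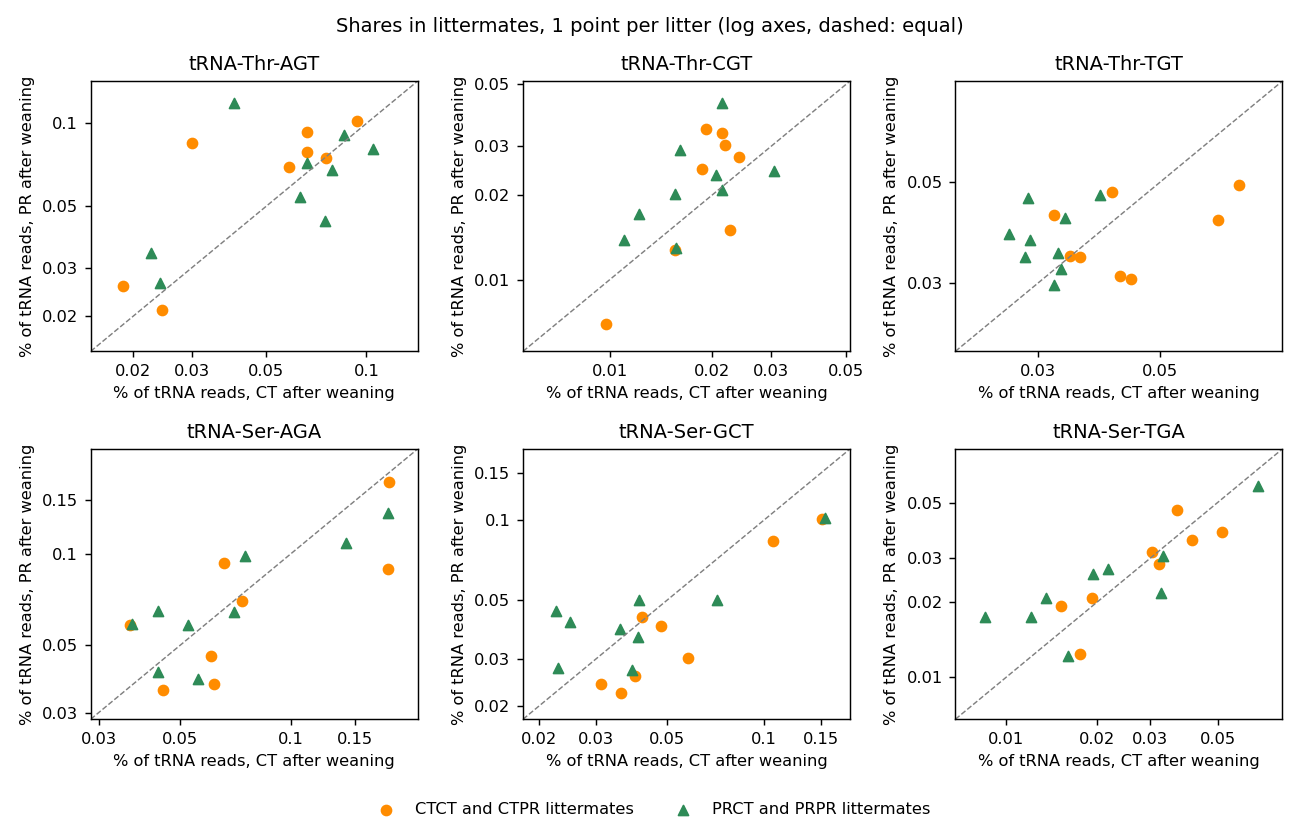
Share of tRNA reads in the brother on the CT diet after weaning (x axis) and in the brother on the PR diet (y axis), on log axes, for 6 isoacceptors, 1 point per litter, with circles for CT dams and triangles for PR dams. Litters high in the brother on the CT diet tended to be high in the brother on the PR diet for tRNA-Ser-TGA (r = 0.82) and tRNA-Ser-GCT (r = 0.83), less so for tRNA-Thr-TGT (r = 0.33), and 7 of the 8 circles of tRNA-Ser-GCT lie below the dashed line of equality.

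The members fell into different patterns across mice. After group means were removed, log2 RPM of tRNA-Thr-AGT and tRNA-Thr-CGT correlated at r = 0.91 over the 38 mice, and tRNA-Thr-TGT with each of them at 0.81. tRNA-Ser-AGA and tRNA-Ser-GCT correlated at 0.70. Between families the values varied. They were near 0 for tRNA-Ser-AGA with tRNA-Thr-AGT (0.062) and tRNA-Ser-GCT with tRNA-Thr-CGT (0.019), and 0.38 and 0.35 for tRNA-Ser-AGA and tRNA-Ser-GCT with tRNA-Thr-TGT. tRNA-Ser-TGA stood at 0.57 to 0.68 with the threonine members, 0.66 with tRNA-Ser-CGA, 0.55 with tRNA-Ser-GCT and 0.44 with tRNA-Ser-AGA. By Spearman's rho its highest value among the members was with tRNA-Ser-GCT (0.68). On that measure tRNA-Ser-AGA (0.49) was nearer to it than tRNA-Thr-AGT (0.43) or tRNA-Thr-CGT (0.39), while tRNA-Thr-TGT had 0.56. The isoacceptors of other amino acids nearest to tRNA-Thr-AGT were tRNA-Gly-GCC (0.93), tRNA-Arg-TCT (0.91) and tRNA-Arg-TCG (0.89), and its correlation with the summed tRNA reads was 0.88. Those nearest to tRNA-Ser-AGA were tRNA-Pro-TGG (0.60), tRNA-Leu-CAA (0.59) and tRNA-Pro-AGG (0.58), and its correlation with the sum was 0.40. These are descriptions, as the points share libraries, depth and litters.

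**Figure D5:**
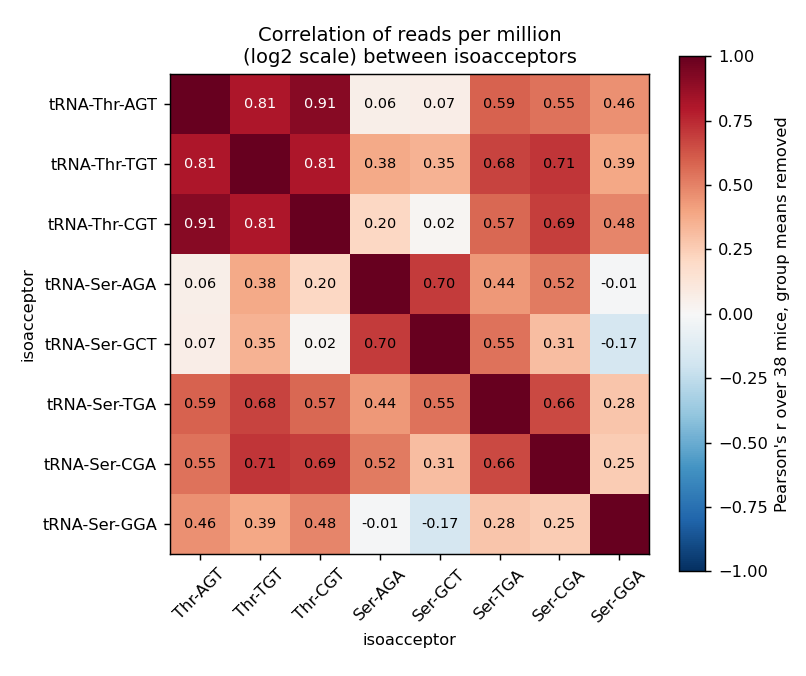
Pearson's r between the isoacceptors over 38 mice, on log2 RPM with group means removed, as a colour scale from -1 to 1. The 3 threonine isoacceptors form a block of 0.81 to 0.91, and tRNA-Ser-AGA and tRNA-Ser-GCT stand apart from tRNA-Thr-AGT and tRNA-Thr-CGT.

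Members also varied to different extents. In RPM the coefficient of variation over the 38 mice was 78.1% for tRNA-Thr-AGT, 74.1% for tRNA-Thr-CGT and 46.8% for tRNA-Thr-TGT, beside a median of 57.0% over the 48 isoacceptors. As a share these fell to 50.2%, 42.8% and 24.3%, the last being the second lowest of the 48, whose median was 45.4%. For tRNA-Ser-AGA the coefficient was 43.3% in RPM and 57.0% as a share, and for tRNA-Ser-GCT 59.2% and 65.2%. For tRNA-Ser-TGA and tRNA-Ser-CGA it was a little lower as a share, at 54.9% and 50.3% and at 45.5% and 44.7%. tRNA-Ser-GGA varied most of all 48 as a share, at 144.6%.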

How the data were processed

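Small RNA-seq of sperm from 38 mice was analysed from the deposited tables, which the authors made with SPORTS 1.0 on mm10 and which hold read counts per small RNA class and isoacceptor, 1 table per mouse, not normalised. The version and build follow the submitters' processing notes. The 5′, 3′ and CCA listings repeat reads of the main tRNA listing. The planned summing of both would have counted reads more than once, so isoacceptors are the main listing alone, and the sum became an alternative. Class totals without these listings fell short of the genome-matching reads by 130 to 6755 reads in 35 mice and differed more in the other 3.

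Groups followed the labels. The study's list of mice gives 2 littermates, 47I1 and 47I2, the opposite groups, and the exchange and their omission were alternatives. Mapped totals of that list equalled the files' in 38 of 38 mice. Litter is the opening 3 characters of a mouse's name and pairs the animals used in the blocked fits.

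Counts were tested with edgeR 4.0.16 (R 4.3.3) in a quasi-likelihood fit over all 38 mice, on the 54 isoacceptors with at least 1 read, with genome-matching or summed tRNA reads as library size and Benjamini-Hochberg adjustment. DESeq2 1.42.0 was an alternative. The scripts were tested on simulated data. Correlations used log2(RPM + 1), and for brothers log2 of reads plus 1 over library size, with 100000 permutations, two-sided, where 1e-05 is the smallest P they can give (Python 3.11.15, numpy 2.4.6, pandas 2.3.3, scipy 1.17.1). All 8 members are named. Other isoacceptors are named where they were the 3 most correlated with the most abundant serine or threonine member, or stood on a listed property, and tRNA-Gly-GCC for its level. Members, lists and tests were chosen with earlier results of these data known. Reads not matching the genome were used only as described at the end.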

Additional observations from a re-analysis of the deposited data

Results flagged for a closer look

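Of 64 sets of values (8 isoacceptors, 2 scales and 4 groups), 18 held a mouse whose gap to its nearest neighbour was large for the group's range. Chance alone would mark about 1 in 20 sets if values were normally distributed, and the sets are not independent. Each flagged value was the highest of its group and tRNA-Ser-GGA held many zeros, so that rate may not hold here. The 18 values came from 10 mice.

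Brothers stood apart together in 3 litters. In litter 02A, tRNA-Ser-AGA was 212 RPM in the CTCT mouse (next mouse 108) and 154 RPM in the CTPR mouse (next 105), and tRNA-Ser-GCT 174 RPM in both (next 65.1 and 80.6). In litter 14A, the PRCT mouse had shares of tRNA reads of 0.154% for tRNA-Ser-GCT (next 0.0715%), 0.0682% for tRNA-Ser-TGA (next 0.0329%) and 0.00766% for tRNA-Ser-CGA (next 0.00440%). Its PRPR brother had 0.102% for tRNA-Ser-GCT (next 0.0501%) and 0.0583% for tRNA-Ser-TGA (next 0.0317%). In litter 47I, tRNA-Ser-GGA was 6.12 RPM in the mouse labelled CTCT (next 1.30), 0.00451% as a share (next 0.00140%), and 8.65 RPM in the mouse labelled CTPR (next 4.38).

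Other mice stood apart singly. In CTPR mouse 09H5 the share of tRNA-Ser-AGA was 0.172% (next 0.0936%). PRCT mouse 59L1 had 257 RPM of tRNA-Thr-AGT (next 130) and 75.01 RPM of tRNA-Thr-CGT (next 33.9). tRNA-Ser-GGA was 1.86 RPM (next 0.657) and 0.00118% (next 0.000267%) in PRCT mouse 40H1 and 6.71 RPM (next 1.94) in PRPR mouse 46I3. The causes were not tested.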

How the results depend on the processing

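Over 3627 values of the 8 isoacceptors under alternatives, 3337 kept their direction and side of nominal P, 54 lost it, 53 gained it and 183 changed sign. The adjusted count in RPM, CTPR against CTCT, of 0 isoacceptors ranged from 0 to 17 when 1 mouse was left out. It was 17 without CTCT mouse 45L3, with all 3 threonine members (adjusted P 0.0350 to 0.0473), 15 without CTCT mouse 47I1, with tRNA-Thr-AGT, tRNA-Thr-CGT and tRNA-Ser-GGA (log2 2.43), and 14 without CTPR mouse 09H5, with tRNA-Thr-AGT and tRNA-Thr-CGT. It was 1, not a member, with 5′ reads alone. Of the 185 listings, main isoacceptor rows included, 1 passed after adjustment in PRPR against PRCT with summed tRNA reads as library size. Across the 38 omissions tRNA-Thr-CGT kept nominal P in 38, tRNA-Thr-AGT in 37, tRNA-Thr-TGT in 32 and tRNA-Ser-CGA in 19. TMM and median-of-ratios factors, which centre on tRNA, left 0 members and 4 isoacceptors at nominal P, with log2 values of -0.36 and -0.38 for tRNA-Ser-AGA, -0.034 and -0.036 for tRNA-Ser-CGA, -0.66 and -0.72 for tRNA-Ser-GCT, -0.061 and -0.11 for tRNA-Ser-TGA, and -0.074 and -0.11 for tRNA-Thr-TGT. Over the 16 alternatives other than omissions of 1 mouse, 0 to 4 members and 4 to 22 of all isoacceptors were at nominal P in this comparison. The main fit had 4 and 19, so counts of members alone do not set them apart. The members at nominal P numbered 3 with the mice of litter 47I exchanged and 3 without it, where tRNA-Ser-GGA entered. They numbered 2 (of 12 isoacceptors) without 07C3, 35F2, 31A3 and 08G5, which include the 3 mice with deviating class totals. With the litter as replicate block there were 3 (tRNA-Thr-AGT and tRNA-Thr-CGT of the original 4, and tRNA-Ser-GGA), without a block in the same 2 groups 2, and without litter 59L, left out after the data were seen, 2. In PRPR against CTCT, tRNA-Thr-CGT reached nominal P without CTCT mouse 45L3, 53M1 or 47I1, PRPR mouse 14A5, 08G5, 23F6 or 31A6, or PRCT mouse 59L1.

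With 5′ reads alone, tRNA-Ser-GCT was -0.086 in CTPR and tRNA-Thr-AGT, which has 1 such read, 0 in PRCT and PRPR. Leaving out 1 mouse moved tRNA-Ser-GCT between -0.20 and 0.46 in CTPR and between -0.26 and 0.15 in PRPR, and the tRNA-Ser-GGA interaction between -1.88 and 0.50. That interaction was 0.060 without litter 47I, and that of tRNA-Thr-CGT -0.033 per tRNA reads. No paired analysis was possible for PRCT or PRPR against CTCT because they share no litters. Depth limits tRNA-Ser-GGA and tRNA-Ser-CGA, which had under 10 RPM in every mouse.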

Other observations

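Reads with a CCA tail that did not match the genome were listed for 7 of the 8 isoacceptors, since the tail is added to the tRNA after transcription and is not encoded. They numbered 3243 for tRNA-Ser-AGA, 1979 for tRNA-Ser-GCT, 786 for tRNA-Ser-TGA and 667 for tRNA-Ser-CGA, isoacceptors of which the former 3 had no CCA read among the genome-matching ones. For threonine there were 1910 for tRNA-Thr-CGT, 1870 for tRNA-Thr-TGT and 1523 for tRNA-Thr-AGT, and for tRNA-Ser-GGA none. Per 100 genome-matching reads of the same isoacceptor these came to 65.5 for tRNA-Ser-CGA, 27.6 for tRNA-Thr-CGT and 6.84 for tRNA-Thr-AGT, with the others between 10.3 and 17.1. The pooled difference between serine and threonine in CCA reads of the genome-matching listing was therefore not seen in this listing.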
